A study of Homo sapiens with 10 samples.

Results

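The long arm of chromosome 20, 20q, held 874 of the 37417 N6-methyladenosine (m6A) peaks listed on the chromosomes of 5 human colon cancer cell lines. A peak was counted on 20q when its summit lay at 30 Mb or higher on chromosome 20 of the genome build hg19. Peaks with a summit below 25500 kb, on the short arm 20p, served as a reference, and numbered 317. The peaks came from MeRIP-seq, in which RNA fragments carrying m6A are pulled down with an antibody (the immunoprecipitate, IP) and sequenced beside RNA that was not enriched (the input).

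The labels give colorectum as the source of HT29, HCT116 and HCT15 and colon as that of COLO205 and COLO320DM. All 5 are established lines from colorectal tumours, were grown in the same kind of medium and received no treatment that the labels name. Each line gave 1 IP and 1 input library from about 300 µg of total RNA. With 1 library per line there was no spread between replicates, so no test between lines was made, and every difference below compares these libraries. Intervals are exact 95% binomial (Clopper-Pearson) limits and cover counting error only, since reads without molecular identifiers are not independent molecules.

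m6A is the most abundant internal modification of messenger RNA. It is placed by a METTL3-METTL14 methyltransferase complex, removed by demethylases and read by proteins of the YTH family, which direct the stability and translation of the marked transcript. Gain of 20q is one of the most frequent chromosome changes in colorectal cancers of the chromosomally unstable kind and is less common in those with mismatch repair defects, the kind to which HCT116 and HCT15 belong. The arm carries YTHDF1, which encodes an m6A reader. The control of a MeRIP-seq experiment is RNA, so a peak list gives no count of DNA copies. Copy number was not measured here, and the number of transcribed 20q genes, their RNA level and their methylation cannot be told apart from these lists.

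Peak positions and each peak's fold (the summit over its local background) are the authors' own. The fold and −log10 p together gave back the IP reads at each summit and the local background. A background at or above the level of 1 input fragment is called input-covered below, and anything under it input-poor. An input-poor peak is thus one whose local background was under 1 input fragment, and such a peak can rest on a handful of IP reads. The control could still hold reads in the region around it. In HCT116 the background of input-poor peaks ran from 1 to 15.7 times the genome mean. These classes were defined after the data had been seen. The HCT15 list stood apart before any question of 20q arises: it held 905 chromosome peaks where the others held 8638 to 9835, and its IP was deeper than its control. HCT15 values are given beside the 4 long lists and were left out of the calls on windows. The recovered IP depth of the long lists was lowest in HCT116 and COLO320DM, with 1.38 and 1.47 M (mega) reads, and higher in HT29 with 2.13 M and COLO205 with 2.99 M.

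The share of the list that lay on 20q differed between the lines. HT29 had 285 peaks there, 3.23% of its list (2.87 to 3.62%). COLO205 had 248 peaks or 2.52% (2.22 to 2.85%), and HCT116 had 198 or 2.15% (1.86 to 2.47%). COLO320DM had the lowest share of the long lists, 123 peaks or 1.42% (1.18 to 1.70%). The short HCT15 list had 20 peaks there, 2.21% (1.36 to 3.39%), an interval that overlapped those of all 4 long lists. The HT29 share was 2.27 times the COLO320DM share, and their intervals did not overlap. The interval of COLO205 overlapped that of HCT116.

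20p did not follow the same order. Its share was 1.04% in COLO205, 0.917% in HT29, 0.764% in COLO320DM and 0.739% in HCT116. The intervals of HCT116, 0.574 to 0.935%, and of COLO205, 0.846 to 1.26%, overlapped. HCT15 had no 20p peak among 905, for which the exact upper limit is 0.407%. Within a list, the number of 20q peaks for each 20p peak was 3.52 in HT29 (2.74 to 4.56), 2.91 in HCT116 (2.20 to 3.89), 2.43 in COLO205 (1.92 to 3.09) and 1.86 in COLO320DM (1.37 to 2.55). This ratio does not depend on the length of the list, and with all listed peaks HT29 and COLO320DM again stood at its ends. At a −log10 q of at least 5 HT29 was still the highest. COLO205, with 1.98 (1.46 to 2.72), then lay below COLO320DM with 2.06 (1.36 to 3.18), and their intervals overlapped. In HCT15, 20q held 6.67 times the 3 peaks taken here as what a count of 0 on 20p allows. This value leaves out the counting error of the 20 peaks on 20q, so it is not a lower limit. Per Mb, counting 20q up to its last peak, HCT116 had 6.01 peaks on 20q, HT29 8.66, COLO320DM 3.74 and COLO205 7.53.

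Most of the difference between the lines lay in the input-poor peaks. Of all input-poor peaks of a list, 20q held 68 in HCT116 or 1.76% (1.37 to 2.23%). In HT29 it held 211 or 3.90% (3.40 to 4.45%), in COLO320DM 25 or 0.767% (0.497 to 1.13%), and in COLO205 147 or 3.08% (2.61 to 3.61%). The intervals of HT29 and COLO205 overlapped narrowly, and both lay above those of HCT116 and COLO320DM, which did not overlap each other. The gap between HCT116 and COLO320DM was gone at a −log10 q of at least 5, where they had 0.933% and 0.940%, and their intervals overlapped without the last 5 Mb of the arm (0.914 and 0.431%). Among peaks with a background at the genome mean, COLO205 had 14 peaks on 20q or 1.16% (0.638 to 1.95%), below HCT116 with 2.12% (1.38 to 3.11%). These intervals overlapped, and that of HCT116 also overlapped that of HT29 (2.66%). HCT15 had 17 input-poor peaks on 20q, 2.35% of its input-poor peaks (1.38 to 3.74%).

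Among the input-covered peaks the 4 long lists lay close together. 20q held 130 of them in HCT116 or 2.43% (2.04 to 2.88%), and 74 in HT29 or 2.17% (1.70 to 2.71%). It held 98 in COLO320DM or 1.82% (1.48 to 2.22%) and 1.996% of them in COLO205 (1.63 to 2.42%). All 4 of these intervals overlapped, and HCT116, not HT29, was the highest. For 20p the input-poor shares were 1.05% in COLO205, 1.02% in HT29, 0.828% in COLO320DM and 0.621% in HCT116. The ratio of input-poor 20q to 20p peaks was 3.84 in HT29 (2.84 to 5.26). COLO205 had 2.94 (2.12 to 4.14), HCT116 2.83 (1.76 to 4.72) and COLO320DM 0.926 (0.515 to 1.66). COLO320DM was thus the one long list with about as many input-poor peaks on the short arm as on the long arm.

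**Figure D1:**
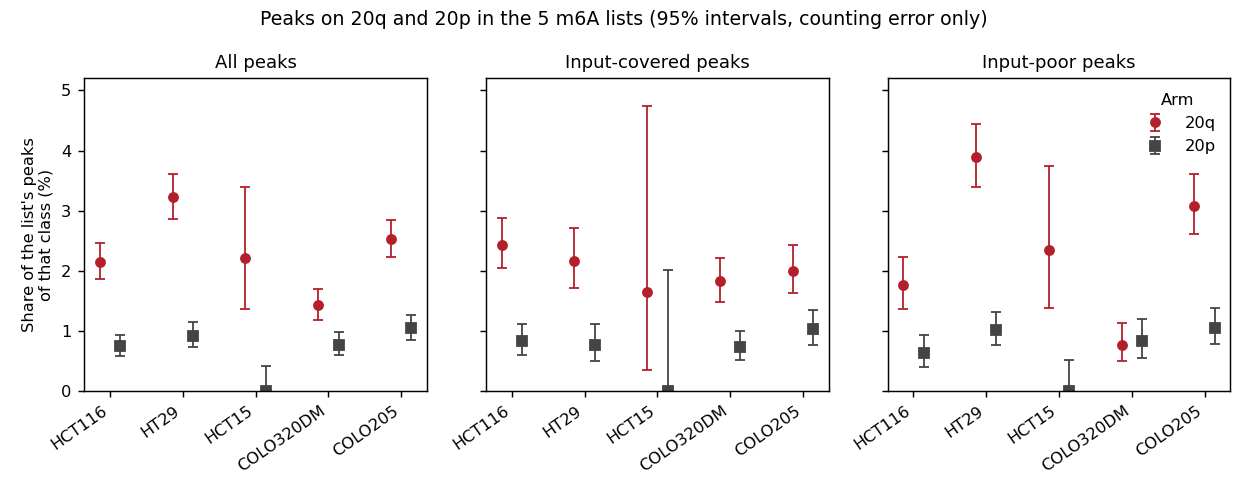
Share of each list's peaks (percent, y axis) that lay on 20q (red circles) and 20p (grey squares) in the 5 lines, for all peaks, input-covered peaks and input-poor peaks, with exact 95% intervals for counting error. The 20q shares of the 4 long lists lie between 1.82 and 2.43% among input-covered peaks and between 0.767 and 3.90% among input-poor peaks.

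The same classes were counted for every chromosome to see whether 20q differed from the rest of the genome in this respect. Chromosomes 1 to 22 and X, with chromosome 20 divided into 20q and the rest, made 24 units, and the share of a list in each unit was divided by the share in another list. For input-poor peaks, HT29 over COLO320DM gave 5.06 on 20q, the highest of the 24 units. The next unit was chromosome 16 with 2.07, and the median of the other units was 0.877. COLO205 over COLO320DM gave 3.99 on 20q, again the highest, with chromosome 16 next at 2.01. HCT116 over COLO320DM gave 2.32, also the highest, with chromosome 22 next at 1.69. With all listed input-poor peaks, the share of COLO320DM was thus low against each of the other 3 long lists, by more than on any other unit. Against HCT116 this was lost under a minimum −log10 q of 5, with 20q shares of 0.933% in HCT116 and 0.940% in COLO320DM. No other chromosome was divided by arm, and no interval was made for the ratios. COLO320DM had 25 input-poor peaks on 20q and 103 on chromosome 16, so counting error weighs more on the 20q ratio. Whether other single arms reach such ratios was not tested.

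Those 3 comparisons share the COLO320DM list. Between lists other than COLO320DM, HT29 over HCT116 gave 2.18 on 20q, the highest unit, with chromosome 13 next at 1.73. COLO205 over HCT116 gave 1.72 and ranked 2 behind chromosome 13 with 3.02. HT29 over COLO205 gave 1.27 and ranked 3. For input-covered peaks 20q ranked highest in none of these pairs. HCT116 over COLO320DM came nearest with 1.34, ranked 3 of 24. HT29 over COLO320DM gave 1.22 and ranked 6, COLO205 over COLO320DM gave 1.18 and ranked 7, and HT29 over HCT116 gave 0.911 and ranked 16.

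**Figure D2:**
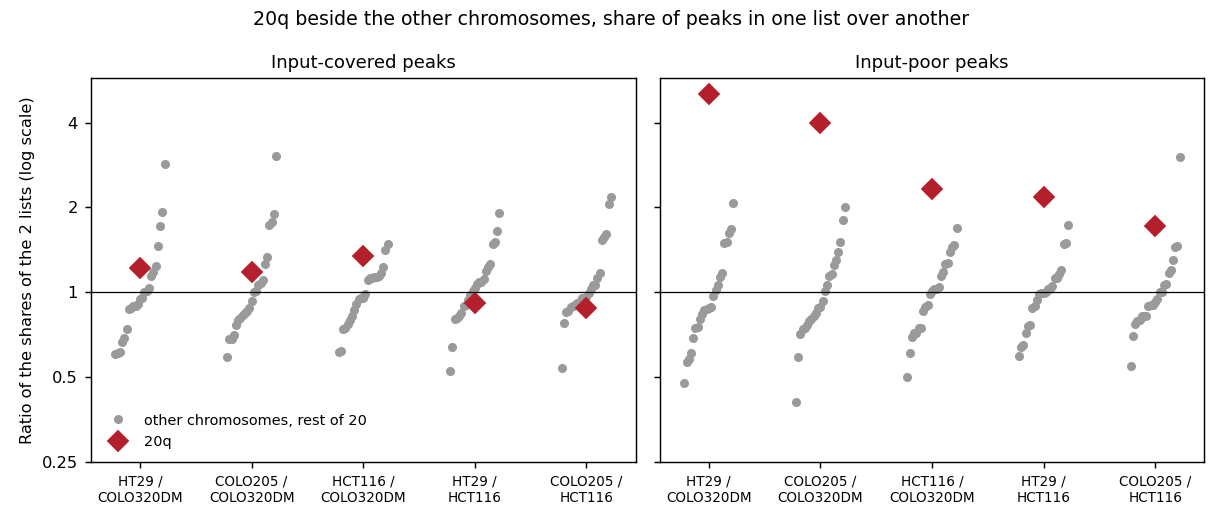
Share of peaks in one list divided by the share in another (log axis) for 20q (red diamonds) and for the other 23 units, chromosomes 1 to 22 without 20q and X (grey circles), by input class and pair of lists. In input-poor peaks 20q is the highest unit for 4 of the 5 pairs drawn, at 5.06 for HT29 over COLO320DM, and in input-covered peaks it lies among the other units.

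IP depth moved with part of this order. HT29 and COLO205, with the highest input-poor shares on 20q, had the deepest IPs of the long lists. HCT116 and COLO320DM had nearly equal IP depths, 1.38 and 1.47 M reads, and input-poor shares of 1.76 and 0.767% on 20q. At a −log10 q of at least 5 these shares were 0.933 and 0.940%. Input depth was 2.24 M reads in HCT116, 2.28 M in COLO320DM, 3.10 M in HT29 and 5.41 M in COLO205. The level of 1 input fragment depends on it. The part of IP or input depth in these shares was not tested.

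The peaks themselves differed between the lines in local input more than in fold. The median fold of the 20q peaks was lowest in HCT116, at 4.797. It was 5.48 in COLO320DM, 5.61 in HCT15, 5.67 in HT29 and 5.70 in COLO205. Over the peaks outside 20q it was 5.12 in HCT116, 5.23 in COLO320DM, 5.67 in HT29, 5.70 in COLO205 and 5.72 in HCT15. The 20q median was thus lower in HCT116, higher in COLO320DM and nearly the same in the other lists. The median local background of 20q peaks, over the genome mean of the list, was 32.1 in HCT116 and 35.6 in COLO320DM. In HT29 it was 2.53, in HCT15 1.67 and in COLO205 3.49. Outside 20q the lists divided the same way, with 16.1 in HCT116 and 23.7 in COLO320DM but 2.96 in HT29 and 6.65 in COLO205. The split between the lines thus ran through the whole lists, and on 20q it was wider. The median number of IP reads at the summit was 12 in HCT116 and 15 in COLO320DM on 20q, with 11 and 12 outside it. In HT29 and COLO205 it was 7 in both on 20q, with 8 and 9 outside it.

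Of the 20q peaks, 65.7% were input-covered in HCT116 (58.6 to 72.2%), against 57.9% of the peaks outside 20q. In COLO320DM 79.7% were input-covered (71.5 to 86.4%), against 62.0% outside 20q. The share was 26.0% in HT29 (21.0 to 31.5%), against 39.1% outside 20q, and 40.7% in COLO205 (34.6 to 47.1%), against 51.7%. Relative to the rest of its own list, 20q was thus richer in input-covered peaks in COLO320DM and HCT116 and poorer in them in HT29 and COLO205. With one threshold of local input for every list, COLO205 fell to 15.7%, below HT29 with 17.9%, so the order of these lines depends on that threshold. The level of 1 input fragment depends on input depth and lay at 16.2 times the genome mean in COLO320DM, 16.1 in HCT116, 11.6 in HT29 and 6.65 in COLO205.

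Input-poor 20q peaks of HT29 were wider than those of the whole list. Their median width was 163 nt, with quartiles of 96 and 288 nt, against 122 nt over all input-poor HT29 peaks. Their median fold was 6.06 against 5.67, and their median of 6 IP reads compared with 5. In HCT116 the input-poor 20q peaks were as narrow as a single fragment, with a median width of 75 nt, a median fold of 3.85 and a median of 3 IP reads, where its whole list of input-poor peaks had 85.5 nt, 4.58 and 4 reads. Under 5 reads were behind 50 of the 68 in HCT116 (73.5%, with 59.6% outside 20q) and 43 of the 211 in HT29 (20.4%, with 28.2% outside 20q). Much of this contrast between the lines was thus present in the whole lists.

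Along the arm, the difference of HT29 and COLO205 from COLO320DM was spread over many windows. The 33 windows of 1 Mb from 30 Mb on were compared by their share of each list. COLO205 had peaks in 32 windows, HT29 in 31, HCT116 in 29, COLO320DM in 24 and HCT15 in 10. HT29 had more input-poor peaks than COLO320DM in 30 of the 33 windows and the same number in 3. As a share of the list's input-poor peaks, HT29 was above COLO320DM in 29 windows and below it in 2, and COLO205 was above COLO320DM in 25 and below in 5. For input-covered peaks, HT29 was above COLO320DM in 15 windows and below in 10, and COLO205 in 15 and 13. HCT116 was above COLO320DM in both classes, in 21 windows and below in 6 for input-covered peaks, and in 17 and 7 for input-poor ones. Along most of the arm, HT29 and COLO205 thus lay above COLO320DM in the input-poor class, and HCT116 did so more often in the input-covered class. COLO320DM had 25 input-poor peaks on the whole arm, so many of its windows held none. These counts were not made over windows elsewhere, so whether 20q differs in them from other arms was not tested.

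A window was called high or low in a long list when its share of the list was at least 2 times, or at most 0.5 times, the mean share in the other 3. There were 28 windows of 20q with at least 10 peaks in the 4 long lists together. HT29 was high in 14 of them (50%), where the same call was made in 11.6% of 1122 windows elsewhere on the chromosomes, and low in 1, the window from 32 Mb (18.4% elsewhere). COLO320DM was low in 13 (46.4%), against 20.9% elsewhere, and high in none, against 14.3% elsewhere. The shares of both calls, HT29 high and COLO320DM low, were well above those elsewhere. These calls are not independent, since a high list raises the mean against which the others are read. The minimum of 10 peaks also counts the called list itself, so a window can enter through the list in which it is high. The window from 52 Mb had 7 peaks in HT29, 2 in HCT116, 1 in COLO205 and none in COLO320DM. Like it, the windows from 37, 43, 50 and 56 Mb were high in HT29 and reached 10 peaks only with those of HT29. Those from 37, 52 and 56 Mb were also low in COLO320DM. The same rule was used for the windows elsewhere, but how many of them entered in this way was not counted.

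HCT116 was high in 1 window of 20q, from 61 Mb (7.22% elsewhere), and low in 6 (21.4%, with 16.4% elsewhere). COLO205 was high in 3, the windows from 46, 57 and 58 Mb (10.7%, with 7.31% elsewhere), and low in 3 (10.7%, with 14.1% elsewhere). For these 2 lines the shares were near the background or rested on single windows. The windows high in HT29 began at 31, 36, 37, 39, 43, 44, 45, 47, 49, 50, 52, 56, 59 and 60 Mb. COLO320DM was low in the windows from 36, 37, 42, 44, 46, 47, 49, 52, 56, 57, 58, 59 and 60 Mb. Of its 13 low windows, those from 36, 37, 44, 47, 49, 52, 56, 59 and 60 Mb were also high in HT29. HCT116 was low in the windows from 31, 36, 37, 56, 59 and 60 Mb, and COLO205 in those from 33, 39 and 52 Mb.

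**Figure D3:**
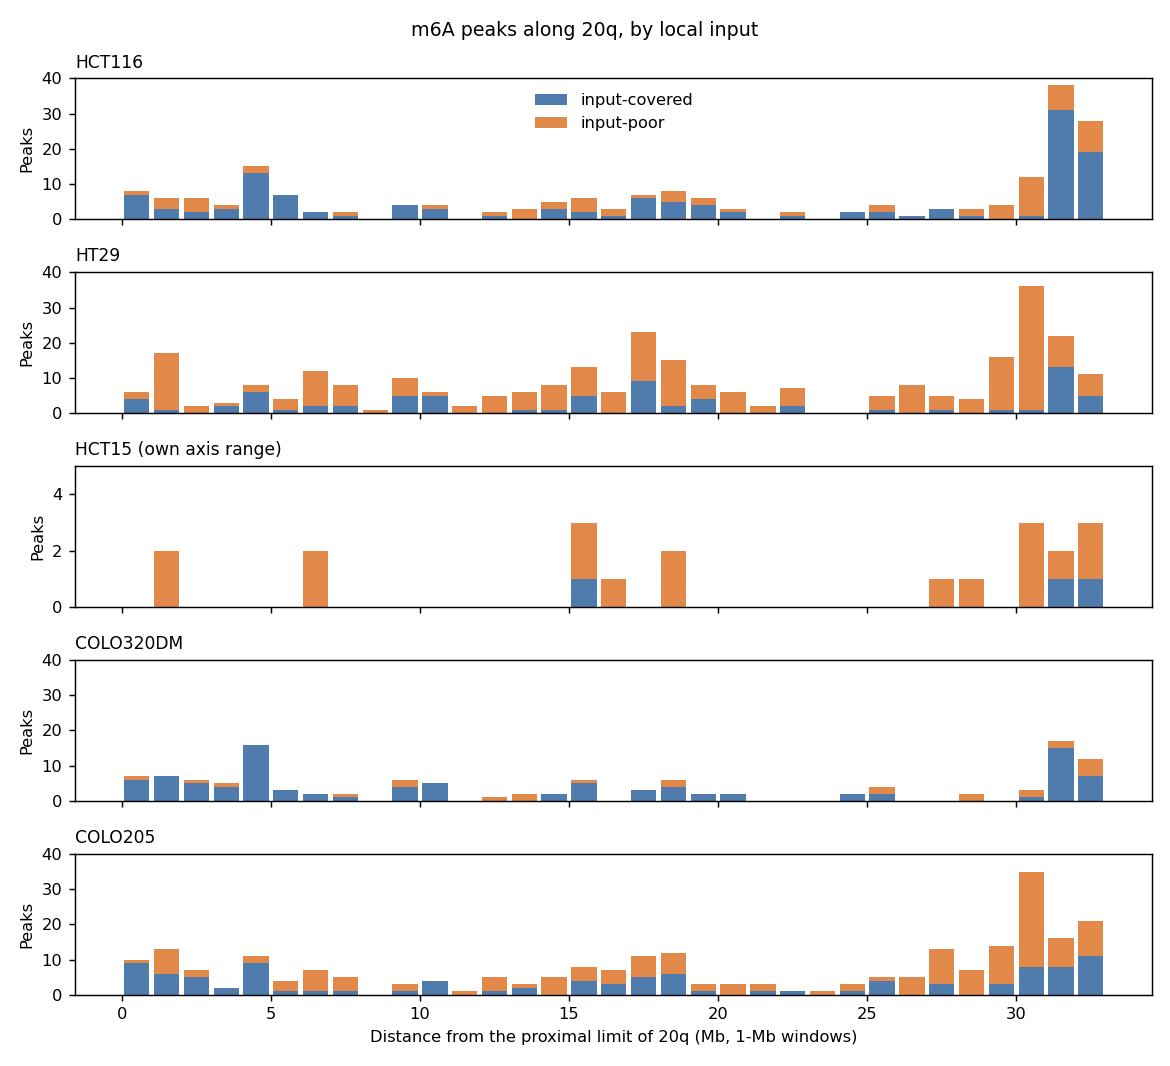
Number of peaks (y axis) in 1-Mb windows along 20q, by distance from its limit at 30 Mb (x axis, Mb), in the 5 lines, with input-covered peaks in blue and input-poor peaks in orange (HCT15 has its own y range). Input-poor peaks fill most windows in HT29 and COLO205, and the window 30 Mb from the limit holds 35 of them in HT29, 27 in COLO205, 11 for HCT116 and 2 for COLO320DM.

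The distal end of the arm was the densest in all lists together. The windows from 60, 61 and 62 Mb held the 3 highest numbers of peaks, and the last 5 Mb, from 58 Mb on, held 42.9% of the 20q peaks of HCT116, 37.5% of those of COLO205, 31.2% of HT29 and 27.6% of COLO320DM. Neighbouring windows there had opposite make-up. The window from 61 Mb had 95 peaks. HCT116 had 38 of them, HT29 22, COLO320DM 17, COLO205 16 and HCT15 2. It was mostly input-covered in HCT116 (31 of 38) and in COLO320DM (15 of 17), and HCT116 had the highest share of its list there, 0.413%, with 0.249% in HT29, 0.197% in COLO320DM and 0.163% in COLO205.

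The window from 60 Mb, next to it, had 89 peaks. HT29 had 36 of them, COLO205 35, HCT116 12, and COLO320DM and HCT15 had 3 each. Here 35 of the 36 HT29 peaks, 27 of the 35 COLO205 peaks and 11 of the 12 HCT116 peaks were input-poor. The recovered IP reads at these summits summed to 219 in HT29 and 220 in COLO205, and to 45 in HCT116 and 18 in COLO320DM. Many of these peaks were nevertheless found at the same place in another list, 23 of the 36 in HT29, 27 of the 35 in COLO205 and 10 of the 12 in HCT116, but none of the 3 in COLO320DM. The window from 62 Mb had 75 peaks. HCT116 had 28 of them, COLO205 21, COLO320DM 12, HT29 11 and HCT15 3.

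Further from the end, the window from 47 Mb was also called high in HT29. It held 23 peaks in HT29, 14 of them input-poor, 11 in COLO205, 7 in HCT116, 3 in COLO320DM and none in HCT15. The window from 31 Mb held 17 peaks in HT29, 16 of them input-poor, 13 in COLO205, 7 in COLO320DM, all input-covered, 6 in HCT116 and 2 in HCT15. The window from 34 Mb had another order, with 16 peaks in COLO320DM, all input-covered, 15 in HCT116, 11 in COLO205, 8 in HT29 and none in HCT15. These windows are numbered here by where they start, and the genes in them were not assigned, since no annotation of hg19 was used here.

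Peaks of 20q were compared with those of the other lists by an overlap of at least 1 nt. In HCT116 112 of the 198 (56.6%) were found in any other list, where 61.7% of the peaks outside 20q were. In HT29 it was 155 of 285 (54.4%, with 64% elsewhere), in COLO320DM 81 of 123 (65.9%, with 52.7% elsewhere) and in COLO205 175 of 248 (70.6%, with 65% elsewhere). In HCT15 it was 19 of 20 (95%, with 94.4% elsewhere). Over both input classes together, HT29 shared fewer of its 20q peaks than of its other peaks and COLO320DM more. Such a share depends on how many 20q peaks the other lists hold, and this was not adjusted for. The intervals of HT29 (48.4 to 60.3%) and COLO320DM (56.8 to 74.2%) did not reach the share elsewhere, and those of HCT116 (49.4 to 63.6%), HCT15 and COLO205 (64.5 to 76.2%) did.

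Sharing differed between the input classes, most in HT29 and COLO320DM. Of the input-covered 20q peaks, 85.1% were found in another list in HT29 (87.0% outside 20q), 75.5% in COLO320DM (68.4%), 73.3% in COLO205 (73.9%) and 60% in HCT116 (71.9%). Of the input-poor ones, 68.7% of those of COLO205 had a match in another list (55.4% outside 20q), 50% of those of HCT116 (47.7%), 43.6% of HT29 (49.3%) and 28% of COLO320DM (27.0%). Within a class, the intervals of HT29 and COLO320DM thus reached the shares outside 20q. In the long lists, 2 intervals did not, that of the input-covered peaks of HCT116, 51.0 to 68.5%, which lay below, and that of the input-poor peaks of COLO205, 60.5 to 76.1%, which lay above.

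Of the pairs of long lists, HT29 and COLO205 had the most 20q peaks in common. They were also the lists with the most 20q peaks, 285 and 248. On 20q, 133 HT29 peaks (46.7%) were found in COLO205, and 143 COLO205 peaks (57.7%) in HT29. Outside 20q the first share was higher, 52.4%, within its 20q interval of 40.8 to 52.6%, and the second was lower, 47.5%, below its interval of 51.2 to 63.9%. Among input-poor peaks, 60.5% of those of COLO205 were found in HT29 (52.2 to 68.5%), against 44% outside 20q and 34% on 20p. HT29 input-poor peaks of 20q were found in COLO205 at 39.8%, against 39.0% outside 20q and 52.7% on 20p (29 of 55).

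A match needs a peak in the other list, and COLO320DM held 123 peaks on 20q where HT29 held 285. Outside 20q they held 8515 and 8548. The found shares were not adjusted for these numbers, so they are not separate from the shares of the lists on 20q. Few input-poor peaks of HT29 on 20q lay in the COLO320DM list, 3 of 211 or 1.42% (0.294 to 4.10%), against 9.82% of those elsewhere. In HCT116 it was 3 of 68 (4.41%, with 16.9% elsewhere), and in COLO205 8 of 147 (5.44%, with 15.7% elsewhere). All HT29 20q peaks together were found in HCT116 at 24.2% and in COLO320DM at 15.4%, with 37.8 and 27.0% elsewhere. COLO320DM peaks of 20q were found in HCT116 at 50.4%, in HT29 at 37.4% and in COLO205 at 44.7%, with 41.9, 26.9 and 33.7% elsewhere. The 20 HCT15 peaks overlapped peaks of HT29 in 19 cases, of COLO205 in 18, of HCT116 in 8 and of COLO320DM in 1.

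Merging overlapping peaks of all lists gave 531 regions on 20q. A single list held 332 of them, 2 lists 116, 3 lists 47, 4 lists 35 and 5 lists 1. Regions in 1 list made up 62.5% on 20q and 64.1% elsewhere. Regions in 2 lists were more frequent on 20q, 21.8% (18.4 to 25.6%) against 17.8%. The intervals for 1, 3, 4 and 5 lists reached the share elsewhere. Larger differences lay in which lists held a region. These sets also follow the number of 20q peaks in each list, which was not adjusted for. HT29 alone held 130 regions, 24.5% (20.9 to 28.4%) against 14.1% of regions elsewhere, and just 11 of these 130 were mostly input-covered. HT29 and COLO205 alone held 65, 12.2% (9.58 to 15.3%) against 5.78%. COLO320DM alone held 42, 7.91% (5.76 to 10.54%) against 18.5%. Regions of HCT116 alone numbered 86 (16.2%, with 15.8% elsewhere) and of COLO205 alone 73 (13.7%, with 15.4% elsewhere), both near the share elsewhere.

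**Figure D4:**
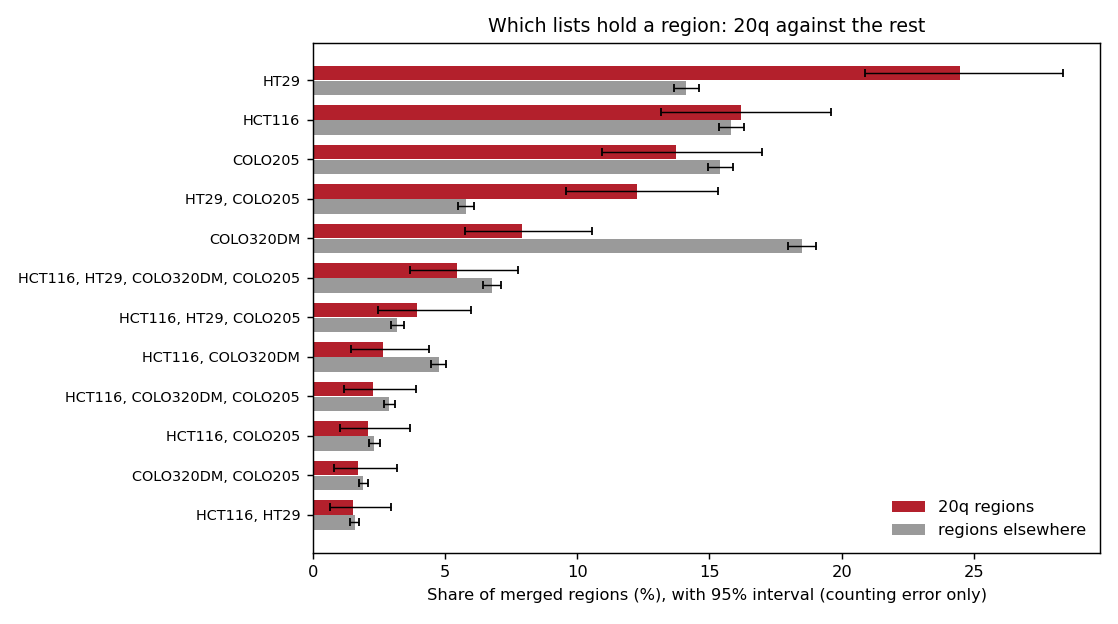
Share of merged regions (percent, x axis) held by each set of lists, on 20q (red, of 531) and elsewhere (grey, of 21784), with exact 95% intervals, for the 12 sets with most 20q regions drawn here. HT29 alone and HT29 with COLO205 have larger shares on 20q, and COLO320DM alone a smaller one (7.91 against 18.5%).

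A core of 30 regions on 20q was present in all 4 long lists, and all 30 were mostly input-covered. The 29 of them without HCT15 made up 5.46% of the 20q regions (3.69 to 7.75%), against 6.77% elsewhere, where 1373 of 1474 were mostly input-covered. Just 6 of them lay in the last 5 Mb. The median fold over the 30 was 7.91 in COLO205, 6.61 in HCT116, 6.61 in COLO320DM and 5.54 in HT29. COLO205 had the highest fold in 17 of the 30 and HT29 the lowest in 13. This count was not made for such regions elsewhere. In regions outside 20q that both lists of a pair held, COLO205 was higher than HCT116 in 2306 of 3646. It was higher than COLO320DM in 1853 of 2813 and than HT29 in 2219 of 4262. There HT29 was lower than COLO320DM in 1231 of 2258 but higher than HCT116 in 1660 of 3155. The median number of IP reads at their summits was 26 in HCT116, 26 in HT29, 25 for COLO320DM and 23.5 for COLO205, so the lines were far closer here than over all 20q peaks. The median local background over the genome mean was 75.7, 70.1, 64.95 and 19.96 in that order.

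The region held by all 5 lists lay at chr20:61510537-61511209. Its fold was 16.1 in COLO205, 11.4 in COLO320DM, 11.1 in HCT116, 8.48 in HT29 and 7.98 in HCT15. The IP reads at its summit were 86, 84, 92, 83 and 75 in that order, with the HCT15 reads unscaled. It was the peak with the highest −log10 p on 20q in HCT116 and in COLO205, and it was input-covered in every list. In HCT116, HT29, COLO320DM and COLO205 the local background stood for 12, 13, 10 and 8 input fragments, so the region lay in RNA that the inputs held as well.

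Of the 10 core regions with the highest lowest percentile of fold, the first was chr20:40161697-40162017. Its fold was 17.9 in COLO205, 14.8 in HT29, 14.4 in COLO320DM and 11.5 in HCT116, with 76, 95, 97 and 81 IP reads. It was in the top few percent of every long list by fold, at a percentile of 96.9 or more. It was the strongest COLO320DM peak of the whole list by −log10 p and the strongest HT29 peak of 20q, and HCT15 had no peak there.

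Other core regions differed more between the lines. At chr20:39713080-39713207 the fold was 27.6 in COLO205, 13.5 in COLO320DM, 7.82 in HT29 and 7.34 in HCT116. The IP reads were 30, 30, 39 and 38, and the local background over the genome mean was 1.497, 32.5, 69.7 and 112 in that order. The reads lay within 30 to 39, and the order of the folds ran opposite to that of the backgrounds. At chr20:45874770-45875196 HCT116 had the highest fold, 20.4, with 8.61 in HT29, 13.1 in COLO320DM and 7.51 in COLO205. HCT116 had 26 reads there over a background of 8.43 times the genome mean, and COLO205 had 48 reads over 66.5 times.

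Near the proximal limit, chr20:30898457-30898947 had a fold of 14.0 in COLO205, 10.4 in HCT116, 7.14 in COLO320DM and 7.04 in HT29. At chr20:30754574-30754737 the folds lay closer, 8.03, 7.22, 6.35 and 5.87 in the same order. COLO205 was the highest at both. Around 40 Mb, chr20:40033169-40033452 gave 15.95 for COLO320DM, 12.3 for COLO205, 6.75 for HT29 and 6.27 for HCT116, and chr20:40143492-40143625 gave 8.72, 6.65, 10.7 and 6.32. The highest list at these neighbouring places was therefore COLO320DM in the first and HT29 in the second. At chr20:39704778-39704930 the fold was 18.5 in COLO205, 7.09 in COLO320DM, 6.37 in HT29 and 5.08 in HCT116, and at chr20:61542160-61542407 it was 6.26, 7.42, 6.85 and 5.17.

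**Figure D5:**
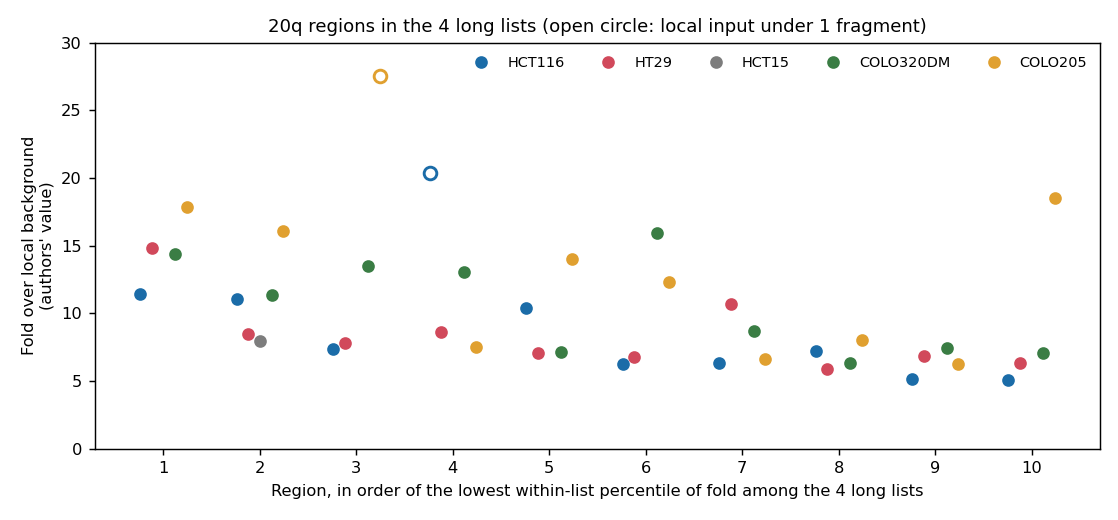
The authors' fold over local background (y axis) of the 10 named core regions of 20q (x axis, in order of the lowest within-list percentile of fold) in each line, with open circles where the local background was under 1 input fragment. The 2 highest values, 27.6 in COLO205 and 20.4 in HCT116, are the 2 open circles.

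Among the named peaks, 5 places with a local background of at most 2 input fragments in the line that names them had peaks in HCT116, HT29 and COLO205 and none in COLO320DM. HCT15 had a peak at 4 of them. These 5 were put together after their values were seen. Regions of those 3 lists with HCT15 made up 1.13% on 20q and 1.40% elsewhere, and those without HCT15 3.95 and 3.19%, so such sets were about as frequent on 20q as elsewhere. The HT29 peak at chr20:46639259-46639940 had a fold of 23.6, the highest of HT29 on 20q, from 25 IP reads over a background of 1.74 times the genome mean. In HCT15 the peak there was chr20:46639506-46639659 with a fold of 7.12 from 20 reads. The peak of HT29 at chr20:37281720-37282108, with a fold of 15.8 from 18 reads, was found in HCT116 and COLO205 and was the one of the 5 without HCT15.

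Another such place was chr20:45417469-45418198 in HT29, with a fold of 13.1 from 30 reads, where the background stood for 2 input fragments. HCT15 had its highest 20q fold there, 11.1 from 39 reads at chr20:45417480-45417599, and HCT116 and COLO205 had a peak as well. At chr20:62728080-62728421 HT29 had a fold of 16.6 from 27 reads and HCT15 9.91 from 30 reads, and HCT116 and COLO205 had a peak there. The HCT15 peak at chr20:62074624-62074864, with a fold of 9.24 from 32 reads, was found in HCT116, HT29 and COLO205.

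Some strong peaks were limited to fewer lists. HCT116 alone had a peak at chr20:62626250-62626342, with a fold of 12.4 from 24 reads. Its peak at chr20:61364987-61365118, with 57 reads and a fold of 6.91, was found in HT29 and in no other list, and its peak at chr20:61443773-61444973, of 1201 nt and with a fold of 8.24, in the other 3 long lists. COLO320DM had a peak at chr20:40033567-40033728 with a fold of 13.9 from 24 reads, found in HT29 and COLO205. The COLO205 peaks at chr20:48252643-48252889, with a fold of 17.0, and at chr20:62221290-62221509, with a fold of 18.4, were found in the other 3 long lists.

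In regions that HT29 and COLO205 both held on 20q, 132 in number, the median fold was 6.80 in HT29 and 6.24 in COLO205, and HT29 was higher in 74. Elsewhere HT29 was higher in 2043 of 4262 such regions. Where HCT116 and COLO205 both held a region, COLO205 had the higher fold in 60 of 80 on 20q and in 2306 of 3646 elsewhere. Where HT29 and COLO320DM did, COLO320DM was higher in 30 of 44 on 20q and in 1231 of 2258 elsewhere.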

How the data were processed

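The 5 deposited peak lists, 1 per IP library of 1 line, were used, and the inputs entered only through them. Tools named in the submitters' processing notes are BWA, MACS2, cutadapt and FastQC, with the build hg19 and without versions or parameters. In the deposited lists the authors give each peak a −log10 p, a −log10 q, a fold (a ratio of the summit to its background) and a score that follows the −log10 q. The other deposited columns used are positions, printed here counting from 1. There were 0 columns of other samples.

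IP reads and local background were recovered from fold and −log10 p under the model of MACS2 (pseudocount 1, Poisson tail, −log10 p met within 0.001). Every peak gave a whole number of reads. In HCT15 this held with each IP read counted as 0.322. That the control was the input of the same line is an assumption. On 200 simulated peaks per list, reads and background were recovered for 100%. These were drawn from the same model, with backgrounds below those of the strongest core regions. They thus check neither the model itself nor the values of those regions. Background was also checked to fall on whole steps of 1 input fragment spread over 10 kb. Depths assume a genome of 2.7 Gb.

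Peaks on chromosomes 1 to 22, X and Y entered the comparison, and ratios between chromosomes leave out Y. Overlap counts equalled those of bedtools 2.31.1 on simulated intervals. The code ran under Python 3.11.15 with pandas 2.3.3, numpy 2.4.6, matplotlib 3.10.9 and scipy 1.17.1. Members, lists and input classes were chosen with earlier results of these data known. Peaks named are, in each list, the 3 of 20q highest by fold and the 5 highest by −log10 p, every region in all 5 lists and 10 in the 4 long lists, those whose lowest percentile of fold was highest. Other settings were a minimum −log10 q of 5, a minimum fold of 4, equally long lists, the last 5 Mb left out, nucleotides in place of peaks, reciprocal overlap of 50%, summits within 100 nt, each list left out, windows of 2 Mb and a factor of 1.5. Gene, motif and sequence work was not run, since no hg19 genome or annotation was used here.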

Additional observations from a re-analysis of the deposited data

Results flagged for a closer look

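The stretch of chromosome 20 between the arms, from 25500 kb to 30 Mb, belonged to neither 20q nor 20p. Its peaks entered the text only within the peaks outside 20q and, among the 24 units, within the rest of chromosome 20. COLO205 had 18 peaks in it, HT29 14, COLO320DM 13, HCT116 9 and HCT15 4, each above the 3 that a count of 0 allows. In HCT15, which had no peak on 20p, the 4 peaks here were its only others on the chromosome outside 20q. At chr20:29829355-29829740, 4 lists had a peak, with a fold of 8.07 from 17 IP reads in HCT116, 3.37 from 44 in HT29, 4.89 from 73 in HCT15 (unscaled) and 3.54 from 65 in COLO205. The local background there stood for 2 input fragments in HCT116, 18 in HT29, 4 in HCT15 and 32 in COLO205, so the lowest background went with the highest fold.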

How the results depend on the processing

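The order of the 20q shares, HT29, COLO205, HCT116 and COLO320DM from high to low, held at a minimum −log10 q of 5, at a minimum fold of 4, in equally long lists, in nucleotides (3.95% in HT29) and without the last 5 Mb. It did not hold with at least 10 IP reads, where COLO205 fell to 2.02% behind HCT116 and HT29 had 2.45% and COLO320DM 1.76%, a spread of 1.39 times, nor among input-covered peaks (HT29 2.17%, COLO320DM 1.82%, COLO205 1.996%), against input-poor ones (HCT116 1.76%, HT29 3.90%, COLO320DM 0.767%, COLO205 3.08%). These alternatives by reads and class were chosen after seeing the data. Without the last 5 Mb the shares were 2.24% in HT29, 1.59% in COLO205, 1.24% in HCT116, 1.23% in HCT15 and 1.03% in COLO320DM, and the 20q to 20p ratios of HT29, COLO205, HCT116 and COLO320DM were 2.42, 1.52, 1.66 and 1.35, since fewer peaks are counted. COLO205 had 2.17% at a −log10 q of at least 5 and 2.10% in equally long lists. The input-poor shares without the last 5 Mb were 0.914, 2.66, 0.431 and 1.78% in HCT116, HT29, COLO320DM and COLO205, and without the window from 60 Mb 3.27% in HT29 and 2.53% in COLO205. At a −log10 q of at least 5 HCT116 had 0.933% and COLO320DM 0.940%, so their gap was gone. For peaks at the genome mean HT29 had 2.66%, HCT116 2.12% (1.38 to 3.11%), COLO205 1.16% (0.638 to 1.95%) and COLO320DM 0.789%. Under a threshold of local input common to the lists, 67.5% of 20q peaks were input-covered in COLO320DM, 57.1% in HCT116, 17.9% in HT29 and 15.7% in COLO205. Reciprocal overlap of 50% gave 526 regions in 1 list, 38 in HT29 and COLO205 alone and 0 in every list, and overlaps of 13.0% for HT29 in HCT116, 26.0% for HT29 in COLO205, 38.2% for COLO320DM in HCT116 and 34.1% for COLO320DM in COLO205. HT29 peaks were found in COLO205 at 35.8% by summits within 100 nt and at 37.0% in equally long lists. A −log10 q of at least 5 gave 211 regions in 1 list and 29 in HT29 and COLO205 alone. Leaving out COLO320DM gave 57 regions in the other long lists and 7 in every remaining list, and leaving out HCT15 gave 30 in every remaining list. HT29 was high in 8 of 17 windows of 2 Mb, in 17 of 28 with a factor of 1.5 and in 7 of 17 at a −log10 q of at least 5, and COLO320DM was low in 9, 19 and 8 of these. Where a construction with fewer peaks or stricter overlap does not account for a change, the cause was not tested. Input-poor peaks of 20q had a median of 3 to 6 IP reads in the long lists, and no comparison at equal depth was made. No paired analysis between lines was possible because each line had 1 IP and 1 input library, without replicates.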

Other observations

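The spacing of peaks on 20q was set beside that of the rest of each list. The median distance from a 20q peak to the nearest peak of the same list was 14.2 kb in HT29, against 5.10 kb outside 20q, and 39.2 kb in HCT15, against 2.84 kb. In COLO205 it was 9.93 kb against 7.15 kb. In HCT116 it was 7.99 kb and in COLO320DM 7.41 kb, both shorter than the 11.2 and 11.7 kb outside 20q. A neighbour within 10 kb was present for 44.9% of the HT29 peaks of 20q (39.0 to 50.9%), against 54.4% outside it. The share was 54.0% in HCT116, 53.7% in COLO320DM, 50% in COLO205 and 40% in HCT15, and the intervals of these 4 reached the shares outside 20q of 48.7, 48.6, 52.6 and 55.8%.

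Input-poor HT29 peaks of 20q that another list also held differed from those in HT29 alone. The 92 shared ones had a median width of 274 nt, a median of 7 IP reads and a median fold of 7.05. The 119 unshared ones had 116 nt, 5 reads and a fold of 5.44. In COLO205 the shared ones had 143 nt and the 46 unshared ones 99.5 nt. The shared ones were the wider in both lists, and the part of width in being found was not tested.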
